A study of Homo sapiens with 59 samples.

Results

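The NKX genes encode homeodomain transcription factors, and 9 of them were examined here: NKX2-1, NKX2-2, NKX2-3, NKX2-4, NKX2-5, NKX2-8, NKX3-2, NKX6-1 and NKX6-2. They were taken by name, as members of 1 gene class, from 20007 protein-coding genes. Their chromatin was profiled by ChIP-Rx-seq, which is chromatin immunoprecipitation with an added amount of mouse chromatin as an external reference, in NCI-H661, a human cell line established from a large cell carcinoma of the lung. Cells induced for knockdown, called DOX (2 µg/ml doxycycline, 7 days), were set against H2O cells (vehicle, 7 days) in each of 3 lines, shDPPA2, shDPPA4 and shDPPA2+4. These lines carry inducible short hairpin RNAs against DPPA2, DPPA4 or both, and the H2O cells carry the same constructs without induction. DPPA2 and DPPA4 are DNA-binding proteins best known from embryonic stem cells. The extent of knockdown is not measured by these libraries. Each line and treatment had 2 libraries of H3K4me3 (replicates 1 and 2), 2 of H3K27me3 and 2 of H2AK119ub (both replicates 1 and 3), which makes 36 libraries. A second experiment exposed the parental line for 1 day to A-485 at 10 µM, which blocks acetylation by p300 and CBP, with DMSO as its vehicle. It gave 2 libraries per treatment of H3K27ac and of H2AK119ub, 3 per treatment of H3K27me3, and 1 library of SUZ12 in DMSO cells. The knockdown lines were sorted bulk populations, so that fewer cells carrying a mark and less of the mark per cell cannot be told apart.

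NKX factors specify organs and cell types in the embryo. NKX2-1 is required for lung, thyroid and ventral forebrain and is a lineage factor of lung adenocarcinoma. NKX2-8 is its neighbour on the chromosome and is followed by PAX9, which encodes a paired-box factor. NKX2-2, NKX6-1 and NKX6-2 pattern the ventral neural tube, and NKX2-2 and NKX6-1 also act in pancreatic endocrine cells. NKX2-5 acts in the heart, NKX2-3 in gut and spleen, and NKX3-2 in the axial skeleton. H3K4me3 marks active and poised promoters, and H3K27ac marks active promoters and enhancers. H2AK119ub is placed by Polycomb repressive complex PRC1 and H3K27me3 by PRC2, of which SUZ12 is a core subunit. Silent developmental genes with CpG-rich promoters often carry H3K4me3 together with both Polycomb marks.

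For each gene, 2 windows were used: the promoter, 1500 bp to either side of the transcription start site of the canonical transcript (3001 bp in all), and the locus, the gene with 10 kb on either side. A base was called covered where it lay under a deposited peak with a log2 fold over input above 1 and a false discovery rate under 0.05, and a promoter was called marked where at least 300 bp were covered. NKX2-1 lies on the minus strand of chromosome 14 (hg38 36516392 to 36521149) with 3 exons in its canonical transcript, and its start is 62.4 kb from that of NKX2-8 (36580004 to 36582614, minus strand). PAX9 starts 79.2 kb beyond NKX2-8, and MBIP, on the other side, 199.6 kb from NKX2-1. The start of SFTA3 is 0.9 kb from that of NKX2-1, so that their promoter windows overlap and coverage there cannot be given to either gene alone. NKX2-4 (21395365 to 21397526) and NKX2-2 (21511017 to 21514064) lie 116.5 kb apart on chromosome 20. The other 5 have no second member nearby: NKX2-3 and NKX6-2 on chromosome 10, NKX3-2 and NKX6-1 on chromosome 4 and NKX2-5 on chromosome 5.

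Promoter sequence was available from RefSeq (GRCh38.p14) for 7 members in 9 windows of 300 bases, 250 before to 50 after a start. Printed are the windows at the canonical start of the pair on chromosome 14, of NKX2-4 as a promoter with all 3 marks and of NKX2-3 as one with H2AK119ub and no H3K27me3; capitals mark CpG dinucleotides.
NKX2-1, chr14:36520183-36520482, minus strand: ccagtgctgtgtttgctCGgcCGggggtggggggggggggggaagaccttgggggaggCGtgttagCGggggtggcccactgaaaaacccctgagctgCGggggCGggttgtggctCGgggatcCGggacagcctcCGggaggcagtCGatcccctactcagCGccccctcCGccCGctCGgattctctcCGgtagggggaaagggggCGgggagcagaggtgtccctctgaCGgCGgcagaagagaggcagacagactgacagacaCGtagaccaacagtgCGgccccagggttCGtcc
NKX2-8, chr14:36582565-36582864, minus strand: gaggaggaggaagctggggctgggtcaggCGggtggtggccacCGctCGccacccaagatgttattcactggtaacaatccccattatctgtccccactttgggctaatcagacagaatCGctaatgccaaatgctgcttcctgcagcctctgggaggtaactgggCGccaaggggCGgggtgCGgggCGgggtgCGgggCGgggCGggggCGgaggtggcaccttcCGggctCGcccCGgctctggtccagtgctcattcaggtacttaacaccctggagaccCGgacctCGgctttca
NKX2-4, chr20:21397477-21397776, minus strand: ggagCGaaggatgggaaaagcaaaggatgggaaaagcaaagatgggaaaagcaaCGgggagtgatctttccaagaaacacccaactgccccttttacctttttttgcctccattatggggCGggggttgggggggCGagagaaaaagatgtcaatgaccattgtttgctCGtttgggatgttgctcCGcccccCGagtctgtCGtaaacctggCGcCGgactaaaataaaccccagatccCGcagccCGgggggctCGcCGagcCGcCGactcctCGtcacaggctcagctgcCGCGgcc
NKX2-3, chr10:99532692-99532991, plus strand: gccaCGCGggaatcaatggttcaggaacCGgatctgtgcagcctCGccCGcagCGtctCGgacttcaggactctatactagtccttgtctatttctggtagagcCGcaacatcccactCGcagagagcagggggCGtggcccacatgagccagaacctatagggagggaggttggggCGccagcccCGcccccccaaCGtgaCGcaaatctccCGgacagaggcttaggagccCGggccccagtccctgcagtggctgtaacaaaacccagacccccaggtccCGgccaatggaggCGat

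These 4 windows held 21, 17, 19 and 18 CpG dinucleotides, against a median of 14 over all 35116 windows of that length. The windows of NKX3-2 and NKX6-1 held 31 and 24. Of the windows of all promoters, 39.5% had at least as many CpGs as that of NKX2-1 and 46.0% at least as many as that of NKX2-8. The NK-2 class binding letters CACTCAAG or their reverse complement CTTGAGTG occurred in 1 of the 9 member windows, at a second start of NKX2-1, and in 0.729% of all windows. CACTTGA or TCAAGTG occurred in 0 of the 9 and in 2.48% of all. A match of letters is a description and not a binding site.

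Reads in filtered peaks ran between 8394879 and 19379794 per H3K4me3 library. They ran between 1085365 and 10545826 for H3K27me3 and between 1330926 and 4136521 for H2AK119ub in the knockdown lines. In parental cells they were between 498618 and 12005354 for H3K27me3, between 390762 and 2133807 for H2AK119ub and between 603895 and 5647079 for H3K27ac, and SUZ12 had 510507. H3K4me3 marked 7 of 8 promoters of the carcinoma list in all 12 libraries (KRT18, KRT19, EPCAM, CDH1, VIM, DPPA2 and DPPA4, but KRT8 in none), and 0 of 9 blood and endothelial promoters in any. Several libraries stood apart. The 3 H2AK119ub libraries of DOX replicate 3 marked 5720, 7005 and 8342 promoters, against 9239 to 11558 in the other 9, and had the highest overlap with H3K27me3 (Jaccard overlap of marked promoters with the nearest H3K27me3 library 0.347, 0.308 and 0.284, against 0.174 to 0.225). The 3 H3K27me3 libraries of H2O replicate 3 had 1085365 to 2227464 reads, against 5951041 to 10545826 in the other 9. H3K27me3 DMSO replicate 4 marked 845 promoters, against 2108 to 3146 in the other 5 parental libraries. H3K27ac DMSO replicate 4 marked 14730 promoters, against 7757 to 11779. Peak lists of the same line and treatment shared their input: in 87 pairs of lists, identical intervals held the same input count in 100% of cases, and in 798 other pairs in 0 to 42.9%. The H3K27ac replicate 4 lists went against their labels in this, since both held the input counts of the other treatment at 100% of shared intervals. Whether the inputs or the labels of these 2 lists were exchanged is not known here, and their values are given under the treatment on the label.

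At promoters, the 9 genes were grouped by the marks present in both libraries of a line and treatment. NKX2-2, NKX2-4 and NKX6-2 carried H3K4me3, H3K27me3 and H2AK119ub in all 6 combinations of line and treatment, and NKX6-1 in 5 of 6, DOX-treated shDPPA4 cells lacking H2AK119ub in 1 of 2 libraries. This state was held by 6.47% to 7.72% of all promoters. NKX2-3 and NKX3-2 carried H3K4me3 and H2AK119ub without H3K27me3 in all 6, a state held by 15.4% to 33.9% of all promoters. NKX2-1 carried H3K4me3 and H2AK119ub in all 6 and H3K27me3 in addition in both treatments of shDPPA2+4. NKX2-8 carried H3K4me3 alone in 5 of 6 and H2AK119ub as well in H2O-treated shDPPA4 cells. NKX2-5, the cardiac gene, had H3K4me3 in both libraries only in DOX-treated shDPPA2+4 cells.

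**Figure D1:**
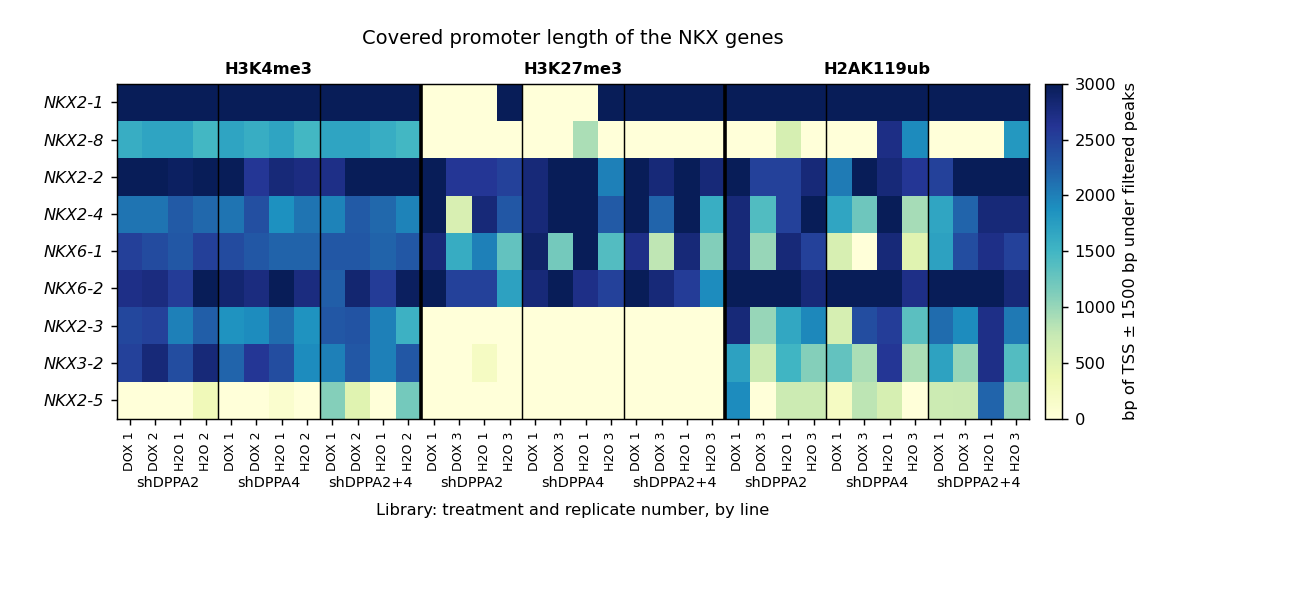
Covered promoter length (colour, 0 to 3001 bp) of the 9 NKX genes (rows) in the 36 knockdown libraries (columns, by mark, line, treatment and replicate number). NKX2-1 is at 3001 bp for H3K4me3 and H2AK119ub in every library, the 4 genes NKX2-2, NKX2-4, NKX6-1 and NKX6-2 are covered by H3K27me3 in all 12 libraries, and NKX2-8 has H2AK119ub in 4 H2O libraries and no DOX library.

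NKX2-1 had by far the broadest H3K4me3 of the 9 loci. Its promoter was covered over all 3001 bp in all 12 libraries, and its locus over 20409 and 20709 bp in DOX and 20509 and 21109 bp in H2O cells of shDPPA2. The locus values were 21109 and 19409 bp in DOX against 20409 and 19209 bp in H2O cells of shDPPA4, and 20009 and 19709 bp in DOX against 21109 and 18809 bp in H2O cells of shDPPA2+4. DOX and H2O libraries overlapped in every line. The other 8 loci had 1700 to 9900 bp of H3K4me3. Read density in the covered bases of the NKX2-1 locus was 1.68 to 2.25 times the mean of the library's peaks. NKX2-2 had 0.267 to 0.381 times and NKX2-8 0.320 to 0.515 times that mean. This density is not divided by input, which was high at NKX2-1. The highest log2 fold over input at the promoter had a median of 3.49 at NKX2-1, 3.26 at NKX2-2, 2.39 at NKX2-8 and 4.63 at NKX2-4.

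H2AK119ub covered the NKX2-1 promoter over 3001 bp in all 12 knockdown libraries and all 4 parental libraries. Its highest log2 fold over input at the promoter was 1.32 and 1.17 in DOX against 1.57 and 1.83 in H2O cells of shDPPA2, and 1.21 and 1.21 in DOX against 1.57 and 1.79 in H2O cells of shDPPA4. In shDPPA2+4 it was 1.60 and 1.72 in DOX and 1.93 and 1.71 in H2O cells. All 12 thus lay above the filter. Each fold is against the input of its own line and treatment. Input density in the deposited H2AK119ub peaks of this locus had a median of 4.51 times the library mean in DOX and 3.93 times in H2O cells. The part of input in these folds was not tested. SUZ12 covered 3001 bp of the promoter and 21809 bp of the locus in the single DMSO library.

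H3K27me3 at NKX2-1 sat at the filter. Coverage of the promoter was either 0 or 3001 bp in every library, and the highest log2 fold over input was 0.82 and 0.86 in DOX against 0.91 and 1.29 in H2O cells of shDPPA2. In shDPPA4 it was 0.81 and 0.95 in DOX and 0.90 and 1.73 in H2O cells, and in shDPPA2+4 1.15 and 1.21 in DOX and 1.04 and 1.27 in H2O cells. With all deposited peaks, without the filter on fold, the promoter was covered over at least 2801 bp in all 18 H3K27me3 libraries. The count of marked libraries, 2 of 6 with DOX and 4 of 6 with H2O, therefore rested on folds between 0.81 and 1.29 for 11 of the 12 libraries.

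**Figure D2:**
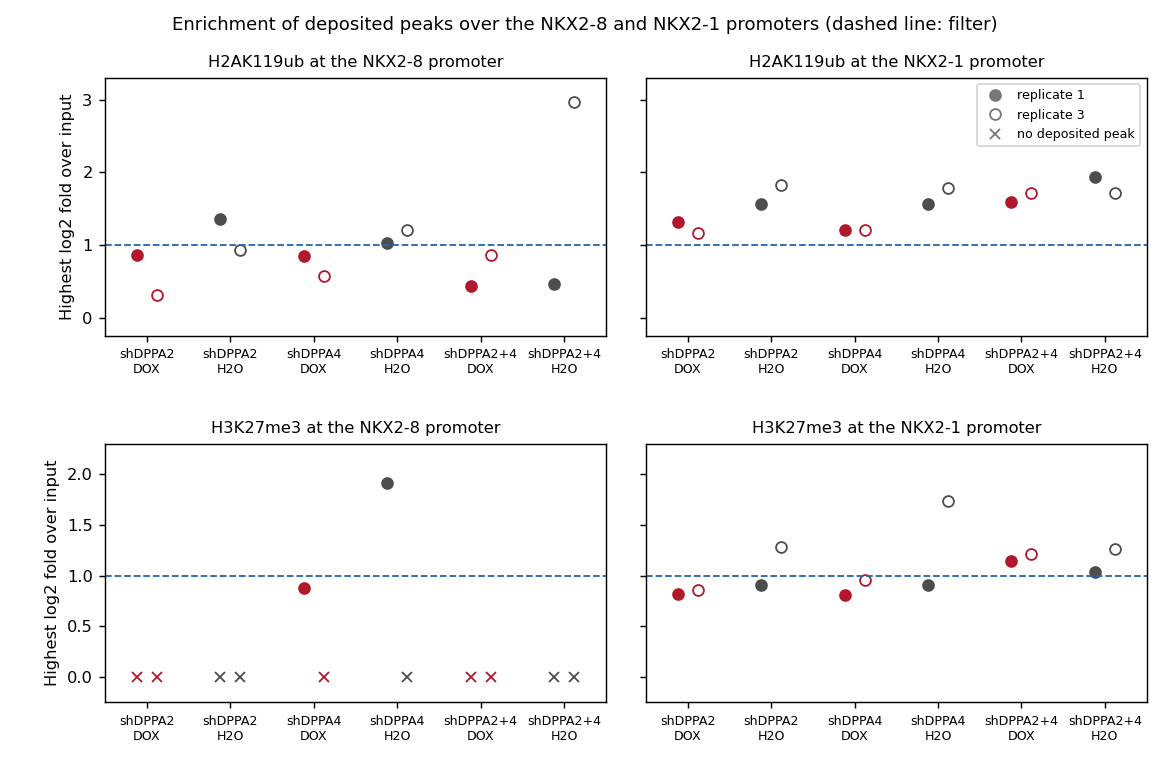
Highest log2 fold over input (vertical axis) of the deposited peaks over the NKX2-8 and NKX2-1 promoters for H2AK119ub and H3K27me3, by line and treatment (horizontal axis; DOX red, H2O grey; filled, replicate 1; open, replicate 3). Crosses, drawn at 0, are libraries with no deposited peak there and the dashed line is the filter at 1; all H2AK119ub values of NKX2-8 in DOX cells lie below it, at 0.32 to 0.87.

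The input itself was high around NKX2-1. Both lists of a line and treatment use the same input, so that the 12 libraries rest on 6 inputs. In the covered bases of the H3K4me3 peaks, input density at the NKX2-1 locus was 3.02 to 3.80 times the library mean (median 3.21 over 12 libraries), which was the 99.9th percentile of 15154 genes. NKX2-8 had a median of 1.41 times (0.888 to 1.85, 95.2th percentile). The other 7 members had medians of 0.513 to 0.749 times, at percentiles of 4.90 to 26.0. The neighbours BRMS1L and MBIP had 4.59 and 4.03 times, PAX9 had 2.92 times and SLC25A21, beyond PAX9, had 0.855 times. Along the chromosome, H3K4me3 peaks 2 to 1 Mb before NKX2-1 had a median of 4.92 times, those within 0.1 Mb 3.17 times, those 0.1 to 0.5 Mb beyond it 2.92 times, and those 0.5 to 1 Mb beyond it 0.999 times. Fold over input in these files is against this raised input, and read sums are not divided by it. Copy number was not measured, and its part in these values was not tested.

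**Figure D3:**
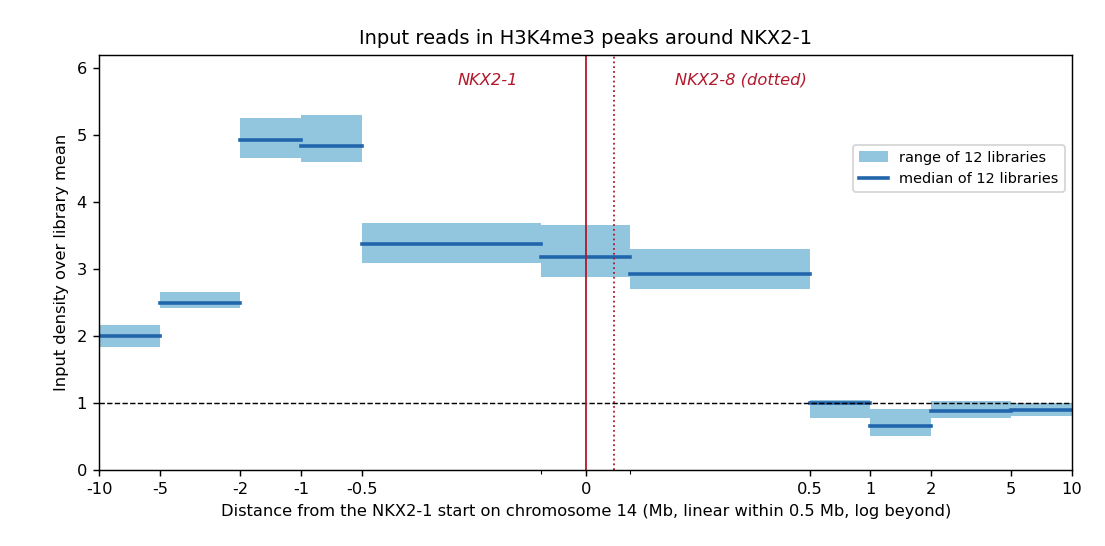
Input density in H3K4me3 peaks relative to the library mean (vertical axis) by distance from the NKX2-1 start (horizontal axis, Mb, linear within 0.5 Mb and logarithmic beyond). Lines are medians and bands ranges over the 12 H3K4me3 libraries, and the dashed line is the library mean; the medians are 2.92 to 4.92 between 2 Mb before and 0.5 Mb beyond NKX2-1 and at most 0.999 farther on.

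At NKX2-8, the promoter was marked by H2AK119ub in H2O cells alone, and the libraries counted as marked changed with the peak filter. H2AK119ub covered 0 and 0 bp with DOX against 2714 and 1914 bp with H2O in shDPPA4, 0 and 0 bp with DOX against 600 and 0 bp with H2O in shDPPA2, and 0 and 0 bp with DOX against 0 and 1801 bp with H2O in shDPPA2+4. No DOX library was marked, and 4 of 6 H2O libraries were. The highest log2 fold over input of the deposited peaks was 0.84 and 0.57 in DOX against 1.03 and 1.21 in H2O cells of shDPPA4. It was 0.86 and 0.32 in DOX against 1.36 and 0.94 in H2O cells of shDPPA2, and 0.43 and 0.87 in DOX against 0.46 and 2.97 in H2O cells of shDPPA2+4. This fold was thus lower in DOX cells in every pair. Each fold is against the input of its own line and treatment, and the difference in fold was not tested. The mean difference in coverage over 6 pairs of line and replicate number was -1171.5 bp (SD 1131.2, lower in 4 of 6 pairs and equal in 2, exact two-sided sign-flip permutation p = 0.125, adjusted p = 0.666 over all promoters). With all deposited peaks the promoter was covered over 1600 to 3001 bp with DOX and 1801 to 3001 bp with H2O, and the mean difference was +197.7 bp. PAX9, the next gene, went the same way, with 0 and 0 bp in DOX against 3001 and 3001 bp in H2O cells of shDPPA4, and 3001 bp in all 4 with all deposited peaks. H3K4me3 at NKX2-8 was covered over 1487 to 1687 bp in all 12 libraries.

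By the rule that a promoter is lost when both H2O and neither DOX library of a line mark it, NKX2-8 in shDPPA4 was the only loss among the 9 genes for any of the 3 marks. It was 1 of 8 member promoters that could be lost for H2AK119ub in shDPPA4, where 11.0% of 8765 promoters were lost. In shDPPA2 and shDPPA2+4, 0 of 8 were lost, beside 6.34% and 5.08% of all. Gains were 0 in each line, and no member was free of H2AK119ub in both H2O libraries; over all promoters, 3.32%, 0.887% and 1.98% were gained in shDPPA2, shDPPA4 and shDPPA2+4. For H3K27me3, 0 of 4, 0 of 4 and 0 of 5 member promoters were lost, beside 3.66%, 1.37% and 1.92% of all in the same order of lines, and 0 of 4, 0 of 3 and 0 of 4 were gained, beside 0.753%, 0.594% and 0.811%. For H3K4me3, 0 of 8 were lost in each line, beside 0.0358%, 0.0216% and 0.0430% of all, and none was gained, beside 0.343%, 0.677% and 0.407%.

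Among the genes with all 3 marks, NKX6-1 had less covered H2AK119ub in DOX cells in 5 of 6 pairs. It had 2801 and 1001 bp in DOX against 2801 and 2501 bp in H2O cells of shDPPA2, 592 and 0 bp in DOX against 2801 and 500 bp in H2O cells of shDPPA4, and 1709 and 2401 bp in DOX against 2701 and 2501 bp in H2O cells of shDPPA2+4. The mean difference was -883.5 bp (SD 859.1, p = 0.0625, adjusted p = 0.666, same exact test). NKX2-4 had a mean of 1829.7 bp in DOX and 2505.2 bp in H2O cells, a difference of -675.5 bp (SD 823.6, lower in 4 of 6 pairs, exact p = 0.156). In a wider window of 3000 bp to either side, NKX2-4 was lower in 6 of 6 pairs, with a mean of 2600.0 bp in DOX and 4183.3 bp in H2O cells (exact p = 0.0312, adjusted p = 0.769). NKX3-2, with H2AK119ub and no H3K27me3, had means of 1213.3 bp in DOX and 1698.2 bp in H2O cells (lower in 4 of 6 pairs, exact p = 0.125). NKX6-2 had 3001 bp in all 6 DOX libraries and 2701 to 3001 bp in H2O cells. For 6 pairs the smallest p of this test is 0.0312, which 2.61% of 15400 promoters reached for H2AK119ub, 388 of them lower and 14 higher in DOX cells, and which 0 of 9 members reached. The median difference over all promoters, DOX minus H2O, was -189.4 bp.

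For H3K27me3, the promoter of NKX6-2, a factor of oligodendrocyte maturation, was covered over more bases in DOX cells in every pair. It had 3001 and 2501 bp in DOX against 2501 and 1701 bp in H2O cells of shDPPA2, 2801 and 3001 bp in DOX against 2701 and 2501 bp in H2O cells of shDPPA4, and 3001 and 2801 bp in DOX against 2547 and 1900 bp in H2O cells of shDPPA2+4. The DOX and H2O values overlapped in range, and the mean difference was +542.5 bp (SD 283.6, exact p = 0.0312, adjusted p = 0.537), beside a median of 212.2 bp over all promoters tested. The H2O libraries of replicate 3 were the shallowest for this mark, and the part of depth in this difference was not tested. The smallest p was reached by 3.34% of 4644 promoters in either direction and by 3.10% in the higher direction, and by 1 of 7 members tested. In the wider window NKX6-2 was higher in 5 of 6 pairs and equal in 1 (p = 0.0625, same exact test). For H3K4me3 it was reached by 2.67% of 14442 promoters and by 0 of 9 members.

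NKX2-3, NKX3-2 and NKX2-5 lacked promoter H3K27me3 in every parental library. Over the 12 knockdown libraries it was also 0 bp at NKX2-3 and NKX2-5, and NKX3-2 had 208 bp in 1 H2O library. H2AK119ub at NKX2-3 covered 600 to 2801 bp in DOX and 1342 to 2701 bp in H2O cells, and at NKX3-2 693 to 1701 bp in DOX and 893 to 2701 bp in H2O cells, so that the treatments overlapped at both. NKX2-5 had 0 to 1901 bp of H2AK119ub in DOX and 6 to 2195 bp in H2O cells. Its promoter had no H3K4me3 in 4 of 6 DOX and 3 of 6 H2O libraries, although its locus held 4000 to 5800 bp of H3K4me3 in all 12.

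Locus reads were compared with edgeR's quasi-likelihood test in genes with a peak in every library, scaled by TMM, which centres the tested genes so that a change shared by most of them is not seen. For H3K27me3 the 4 members that could be tested, NKX2-2, NKX2-4, NKX6-1 and NKX6-2, all had lower values in DOX cells. The log2 fold change as a mean over the 3 lines was -1.03 (SE 0.41) for NKX2-4, -0.73 (SE 0.28) for NKX6-1, -0.57 (SE 0.24) for NKX6-2 and -0.48 (SE 0.16) for NKX2-2, beside a median of -0.01 over 3740 genes. No member was called (edgeR, adjusted p of 0.116 to 0.141), and neither was any other gene (0%, with 1205 at an unadjusted p under 0.05, and 670 called by DESeq2). All 4 had an unadjusted p between 0.015 and 0.040, and 16.0% of all genes were lower at p under 0.05. Leaving out H2O replicate 1 of shDPPA4 changed the calls of these 4 members. That fit left replicate 3, with 1085365 reads, as the only H2O library of the line, and nothing is drawn from its calls.

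The lower H3K27me3 values came mostly from replicate 3. For NKX2-2, locus RPM (reads scaled to the total in filtered peaks of the library) was, in replicate 1, 76.7 in DOX against 97.1 in H2O cells of shDPPA2, 107 in DOX against 106 in H2O cells of shDPPA4, and 91.1 in DOX against 114 in H2O cells of shDPPA2+4. In replicate 3 it was 82.7 in DOX against 158 in H2O cells of shDPPA2, 81.6 in DOX against 195 in H2O cells of shDPPA4, and 98.6 in DOX against 192 in H2O cells of shDPPA2+4. Relative to the median gene of the same pair, the log2 ratio of NKX2-2 was between -0.30 and 0.03 in replicate 1 and between -1.04 and -0.59 in replicate 3. For NKX6-1 it was -0.27 to 0.04 in replicate 1 and -1.52 to -1.27 in replicate 3, for NKX6-2 -0.24 to 0.06 and -1.72 to -0.60, and for NKX2-4 -0.53 to -0.02 and -3.40 to -0.63. Depth moved with this: the replicate 3 pairs had 7295874, 10345651 and 5989134 reads in DOX against 2227464, 1085365 and 1748622 in H2O cells, in the order shDPPA2, shDPPA4 and shDPPA2+4, whereas replicate 1 had 7779470 to 10431794 in DOX and 5951041 to 10545826 in H2O cells. Its part in the difference was not tested. Within the promoter window the 4 log2 fold changes were smaller, -0.54 for NKX2-4, -0.45 for NKX6-1, -0.14 for NKX6-2 and -0.13 for NKX2-2.

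**Figure D4:**
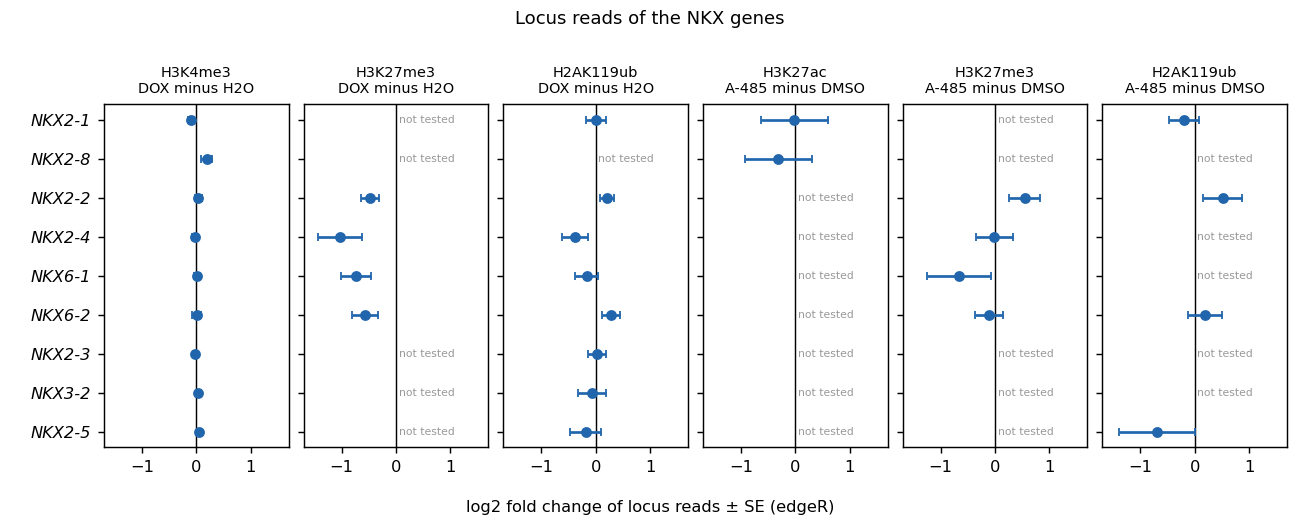
Log2 fold change of locus reads (horizontal axis) with its SE (bars) for each NKX gene (rows) in the 6 comparisons (panels, DOX over H2O or A-485 over DMSO). No gene is called in any panel; the 4 H3K27me3 values of the knockdown experiment lie between -1.03 and -0.48, and members without a peak in every library are marked as not tested.

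For H2AK119ub, 8 members could be tested, and their log2 fold changes were -0.38 (SE 0.25, NKX2-4) to 0.28 (SE 0.17, NKX6-2), with 4 above and 4 below 0. None was called (edgeR, adjusted p of 0.321 to 0.986), and the share over 7237 genes was 0% (1690 at an unadjusted p under 0.05, 672 called by DESeq2). NKX2-1 had a log2 fold change of 0.01 (SE 0.18). By line it was -0.47 in shDPPA2, 0.41 in shDPPA4 and 0.08 in shDPPA2+4, and none of these differences between lines passed (edgeR, adjusted p of 0.950 to 1.00 over all genes). The spread between lines came from replicate 1, where the log2 ratio minus that of the median gene was -1.01, 0.82 and 0.13 in that order of lines, whereas in replicate 3 it was 0.06, 0.04 and 0.05. In replicate 3 the median gene was itself lower in DOX cells, at -1.06, -0.8 and -0.57. The log2 ratio of NKX2-1 before this subtraction was -0.99, -0.75 and -0.52. For H3K4me3 the 9 members lay between -0.10 (SE 0.06, NKX2-1) and 0.19 (SE 0.10, NKX2-8). None was called (edgeR, adjusted p of 0.201 to 0.974), beside 0.158% of 15813 genes. Among single lines, the lowest adjusted p by edgeR for H3K4me3 was 0.141, for NKX2-1 in shDPPA2, at a log2 fold change of -0.29 (SE 0.10). Its H3K4me3 locus RPM there was 617.7 and 484.8 in DOX and 643.5 and 674.8 in H2O cells. Relative to the median gene of the same pair, its log2 ratio was -0.08 in replicate 1 and -0.5 in replicate 2. Of 63 member differences between lines over the 3 marks, 1 had an unadjusted p under 0.05 and the smallest adjusted p was 0.95.

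In parental cells H3K27ac was broadest at NKX2-1. Its locus was covered over 16009 and 5009 bp in A-485 and 19109 and 21809 bp in DMSO cells, and its promoter over 3001 and 0 bp in A-485 and 3001 and 3001 bp in DMSO cells. The A-485 library at 0 bp was replicate 4, whose highest log2 fold over input was 0.98, and with all deposited peaks the promoter was covered over 3001 bp in all 4. By edgeR, locus reads of NKX2-1 had a log2 fold change of -0.02 (SE 0.62) and those of NKX2-8 of -0.31 (SE 0.62), neither called, beside 0.139% of 10046 genes. Reads in filtered peaks were 780375 and 603895 in A-485 against 2709073 and 5647079 in DMSO cells. TMM scaling centres the tested genes, so that a fall shared by most of them is not seen in these fold changes. NKX2-3 had 0 and 0 bp of promoter H3K27ac in A-485 and 600 and 2100 bp in DMSO cells, and NKX3-2 had 0 and 0 bp in A-485 and 300 and 2193 bp in DMSO cells. These were 2 of the 3 member promoters marked in both DMSO libraries, and 12.4% of 11650 promoters were lost in the same way. NKX2-2, NKX2-5, NKX2-8, NKX6-1 and NKX6-2 had promoter H3K27ac in DMSO replicate 4 alone (900, 2295, 3001, 1000 and 2547 bp), the library with the most marked promoters and with the input of the other treatment, and NKX2-4 had none in any library.

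**Figure D5:**
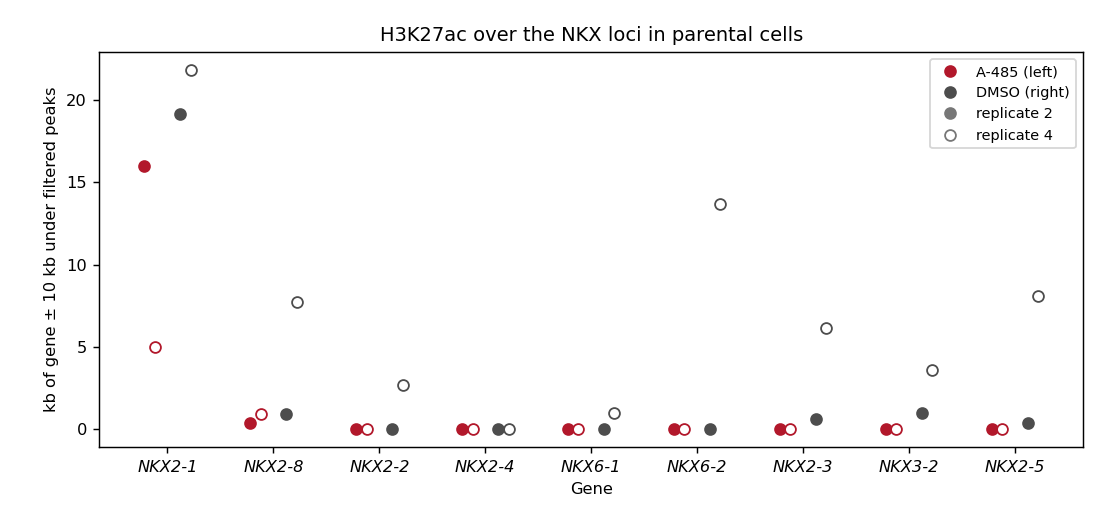
H3K27ac over the loci of the 9 NKX genes in parental cells (vertical axis, kb of gene ± 10 kb under filtered peaks; A-485 red, left, and DMSO grey, right; filled, replicate 2; open, replicate 4). NKX2-1 has 16009 and 5009 bp in A-485 and 19109 and 21809 bp in DMSO cells, and no other locus has more than 1000 bp outside DMSO replicate 4.

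For H2AK119ub in parental cells, NKX2-1 (3001 bp in all 4) and NKX6-2 (3001 and 2001 bp in A-485, 3001 and 2747 bp in DMSO cells) kept marked promoters, and NKX2-2, NKX2-4, NKX3-2 and NKX6-1 were marked in replicate 3 of both treatments and in replicate 4 of neither. Replicate 4 had 541369 reads in A-485 and 390762 in DMSO cells, against 1471580 in A-485 and 2133807 in DMSO cells in replicate 3. Over the NKX2-8 locus, H2AK119ub covered 2914 and 3100 bp in A-485 and 0 and 2414 bp in DMSO cells. Over the NKX2-5 locus it covered 500 and 1100 bp in A-485 and 1500 and 1500 bp in DMSO cells. The 4 members tested had log2 fold changes of -0.69 (SE 0.70, NKX2-5) to 0.51 (SE 0.37, NKX2-2), none called, beside 0.130% of 5393 genes, and 0 of 2 marked promoters were lost, beside 8.15% of all. For H3K27me3, the 4 members lay between -0.66 (SE 0.58, NKX6-1) and 0.55 (SE 0.28, NKX2-2). None was called, beside 0% of 2440 genes (56 at an unadjusted p under 0.05, 1 called by DESeq2), and 0 of 3 were lost, beside 0.526% of all. Without DMSO replicate 4, the library with 845 marked promoters, all 5 members that could then be tested were above 0. Exact permutation of 2 against 2 or 3 against 3 libraries cannot go below 0.333 or 0.1, so that the coverage values were not tested. SUZ12 covered 2801 bp of the NKX2-2, 2675 bp of the NKX2-4, 2009 bp of the NKX6-1 and 3001 bp of the NKX6-2 promoter, and 0 bp of NKX2-3, NKX2-5, NKX2-8 and NKX3-2. These 4 genes and NKX2-1 had marked H3K27me3 promoters in at least 4 of the 6 parental libraries, NKX2-2 being under 300 bp in replicate 4 of both treatments (237 bp in A-485, 0 bp in DMSO cells), and the other 4 genes in none.

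Genes that work with the NKX factors were followed in lists. Of 20 partners and targets of NKX2-1 in lung and thyroid, 7 had promoter H3K4me3 in all 12 libraries and 11 in none, and 0 of the 12, 9 and 9 tested for H3K4me3, H3K27me3 and H2AK119ub were called. HOPX, an alveolar type I factor, lost H3K4me3 in shDPPA4 (0 and 0 bp in DOX, 1200 and 1200 bp in H2O cells), although all deposited peaks covered 1300 and 1100 bp in DOX cells. Of all promoters that could be lost, 0.0216% were lost there. TSHR, the thyrotropin receptor, lost H3K27me3 in shDPPA2 (121 and 0 bp in DOX, 2121 and 800 bp in H2O cells), with 1721 and 0 bp in DOX cells by all deposited peaks. There, 3.66% of all were lost. Of 18 ventral neural tube factors, 15 had H3K4me3, 13 H2AK119ub and 10 H3K27me3 in all 12 libraries. The median H3K27me3 log2 fold change was -0.34 over 13 of them, -0.35 over 8 pancreatic endocrine factors, -0.33 over 7 cardiac factors and 0.28 over 6 axial skeleton, gut and spleen factors, beside -0.65 over the 4 NKX genes and -0.01 over all genes, with 0 called in each list. It was also below 0 over 9 NKX2-1 partners and targets (-0.27), 8 chromosomal neighbours (-0.20) and 3 blood and endothelial genes (-0.25), again with 0 called. GLI1, a Hedgehog effector, lost H2AK119ub in shDPPA4 (0 and 0 bp in DOX, 3001 and 1885 bp in H2O cells), with 2916 and 0 bp in DOX cells by all deposited peaks. It was 1 of the 18 ventral neural tube factors, beside 11.0% of all promoters that could be lost. MYL7, an atrial myosin light chain, gained H2AK119ub in shDPPA2+4 (700 and 701 bp in DOX, 0 and 0 bp in H2O cells), where EPCAM, of the carcinoma list, lost it (0 and 0 bp in DOX, 2811 and 1300 bp in H2O cells, with 1700 and 0 bp in DOX cells by all deposited peaks). In that line 1.98% of all promoters that could be gained were gained, and 5.08% of those that could be lost were lost. CD3E, of the blood list, gained H2AK119ub in shDPPA2 (971 and 771 bp in DOX, 0 and 0 bp in H2O cells), where 3.32% of all were gained, while H3K4me3 was at 0 of 9 of that list.

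Of the 20 chromosomal neighbours of the NKX genes, 18 had promoter H3K4me3 in all 12 libraries. In shDPPA4, RIN2 near NKX2-2 and NKX2-4 lost H2AK119ub with DOX (0 and 0 bp in DOX, 2543 and 800 bp in H2O cells), as did PAX9. They were 2 of the 20 neighbours, beside 11.0% of the 8765 promoters that could be lost. With A-485, edgeR called 1 of 7 neighbours tested higher for H2AK119ub, beside 0.130% of all genes called, and 1 of 10 higher for H3K27ac, beside 0.139%. Locus H2AK119ub of PAX9 was higher by 1.68 on the log2 scale (SE 0.37, adjusted p = 0.0134), with 21533 and 14633 bp covered in A-485 and 21333 and 1700 bp in DMSO cells. The 1700 bp were in DMSO replicate 4, where all deposited peaks covered 36395 bp. Locus H3K27ac of SLC25A21, a mitochondrial carrier gene, was higher by 2.05 on the log2 scale (SE 0.50, adjusted p = 0.0301), with 163 and 125 reads in A-485 and 152 and 239 reads in DMSO cells before scaling. This fold is relative to the other tested genes. Reads in filtered peaks were 780375 and 603895 in A-485 against 2709073 and 5647079 in DMSO cells. Replicate 4 of both treatments entered this call as labelled, and edgeR called 0 genes for H3K27ac when either of these libraries was left out, without the block.

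By covered promoter length over the 36 knockdown libraries, the genes most like NKX2-1 were SP9, SLC9A3, RGS9BP, TTC9B and UNCX, with mean absolute differences of 382.0 to 454.1 bp per library. SP9 and UNCX, both developmental transcription factors, averaged 2580 and 2824 bp of H3K27me3. SLC9A3, TTC9B and RGS9BP averaged 1809, 1585 and 1195 bp, and NKX2-1 itself 1000.3 bp in DOX and 2000.7 bp in H2O cells. The genes most like NKX2-8 were TTF1, an RNA polymerase I termination factor unrelated to NKX2-1 despite the similar name, ENSG00000267001, SLC39A3, GATB and BBS1 (218.3 to 238.7 bp), which averaged 1708 to 1761 bp of H3K4me3 and 50 to 270 bp of H2AK119ub.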

How the data were processed

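Per the labels and the study's methods, the authors trimmed reads with Trim Galore 0.6.6, aligned them with BWA 0.7.13 to hg38, handled them with SAMtools 1.9, Picard 2.6.0 and deepTools 3.5.0, and called broad peaks of histone marks against input with EPIC2 in bins of 100 bp. The SUZ12 list has the same format and was read likewise, although the methods describe a narrow peak caller for SUZ12. Of 59 samples, 51 had a peak list, and the other 8 were inputs. Each deposited list gives whole-number read counts for ChIP and input per peak. It also holds a deposited p-value and false discovery rate, a deposited log2 fold over input and a deposited score. The mouse spike-in is not in these lists and was not used here, nor were the authors' blacklist and genome bins.

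Peaks with a log2 fold above 1 and a false discovery rate under 0.05 were kept, as in the study. Counts of a peak were assigned to a window in proportion to the bases overlapped and rounded. Genes with a peak in every library and a mean of at least 10 reads were tested with edgeR 4.0.16 in R 4.3.3 (quasi-likelihood, TMM scaling, replicate number as a block, Benjamini-Hochberg adjustment over all genes tested). Calls needed an adjusted p under 0.05 together with a log2 fold change of 0.5 or more in size. DESeq2 1.42.0 was an alternative. The block follows the study, which replicated its experiments in complete batches: in the knockdown lines, same-numbered libraries deviated together with correlations between 0.25 and 0.75 (H2AK119ub), 0.36 and 0.63 (H3K4me3) or -0.23 and 0.77 (H3K27me3), and in parental cells between 0.44 and 0.68. Covered promoter bases were compared over 6 pairs of line and replicate number by an exact two-sided sign-flip permutation test. It flips each pair on its own and is exact only if the pairs are independent, whereas same-numbered libraries deviated together. The study calls its replicates biological and the labels only number them, so that p-values measure the spread between these libraries. On simulated data the edgeR fit recovered 100% of 2-fold changes in the 3 knockdown comparisons. With A-485 it recovered 56% for H3K27ac, 43% for H2AK119ub and 98% for H3K27me3. Of 1.5-fold changes it recovered 69% to 78% in the knockdown comparisons, and with A-485 9%, 3% and 56% in the same order. The simulated counts had a fixed spread and no shift by batch or line. These shares therefore do not give the power in the real libraries.

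All 9 genes are named, of the other lists those lost, gained or called (at most 5 per list), and for NKX2-1 and NKX2-8 the 5 genes nearest in covered promoter length, without overlapping windows. Of the genes of the other lists that were gained, 2 are not reported here. Members and lists were chosen with earlier results of these data known. Python 3.11.15, NumPy 2.4.6, pandas 2.3.3 and matplotlib 3.10.9 were used.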

Additional observations from a re-analysis of the deposited data

Results flagged for a closer look

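For 3 pairs of lines, every replicate moved one way in one line and the opposite way in the other, in promoter bases covered. The difference between lines was not tested in any of them. At NKX2-4, H3K4me3 in DOX minus H2O cells was -200 and -100 bp for the shDPPA2 line, whereas the shDPPA4 line had 200 and 300 bp, a difference of -400 bp between the line means. At NKX6-1, H3K27me3 in DOX minus H2O cells was 800 and 309 bp in shDPPA2, against -109 and -200 bp in shDPPA4, a difference of 709 bp. Against shDPPA2+4, with -91 and -317 bp, the difference was 758.5 bp.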

How the results depend on the processing

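Counts of members called for locus reads were 0 in all 6 comparisons. For H3K27me3 with DOX, DESeq2 called 1 (NKX2-4), and leaving out a library gave 0 to 4, the 4 without shDPPA4 H2O replicate 1. For H3K27me3 with A-485, leaving out a library gave 0 to 1, the 1 being NKX2-8 at a log2 fold change of -3.98 without DMSO replicate 2. Member promoters lost or gained with DOX numbered 1 for H3K4me3 and 2 for H3K27me3 at a log2 fold above 2 (0 each otherwise), and 0 to 1 and 1 to 2 without a replicate. The H3K4me3 member was NKX2-5, gained in shDPPA2+4, beside 0.638% of all at a log2 fold above 2 and 1.51% without replicate 2. The H3K27me3 members were lost, beside 11.5% to 16.6% of all by line at a log2 fold above 2 and 10.7% to 18.7% without a replicate. For H2AK119ub, where NKX2-8 was the 1 lost, there were 0 with all deposited peaks, 2 at a log2 fold above 2, 2 when marked meant 1000 bp, and 3 to 5 without a replicate. Members at the smallest sign-flip p numbered 0 for H3K27me3 and 1 for H2AK119ub (NKX2-4) in the window of 3000 bp. Member promoters lost or gained with A-485 for H3K27ac were 0 at a log2 fold above 2, against 2, and 2 to 8 without a replicate. At a log2 fold above 2, 11.4% of all promoters were lost. Without replicate 2, 8 of 8 members were lost, beside 47.5% of 14730 promoters, and without replicate 4, 2 of 3, beside 16.3% of 11779. For H2AK119ub they were 0 to 2, the 2 being NKX2-3 and NKX2-5, gained without replicate 3. They were 2 of 7 members that could be gained, beside 13.6% of 16153 promoters.

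Over all alternatives, the other sign was taken by 23 of 150 member values for H2AK119ub, 22 of 170 for H3K4me3 and 0 of 76 for H3K27me3 with DOX, and with A-485 by 13 of 20 for H3K27ac, 9 of 42 for H2AK119ub and 14 of 51 for H3K27me3. Among values larger than their SE, signs reversed as follows. For H2AK119ub with DOX, NKX2-2 went to -0.19 and NKX6-2 to -0.12 when scaled by reads in filtered peaks, which moved the median gene to -0.43, and NKX2-4 to 0.15 with covered length as an offset. H3K4me3 at NKX2-5 went to -0.04 with that offset. With A-485 and that offset, H3K27me3 went to -0.23 at NKX2-2 and 0.23 at NKX6-1, which had 0.10 without A-485 replicate 4 and 0.12 without DMSO replicate 4 (leaving out each library in turn gave -1.26 to 0.12). H2AK119ub at NKX2-2 went to -0.45 without A-485 replicate 3 and -0.31 without DMSO replicate 4, both with no block. NKX2-8 H2AK119ub coverage went to 197.7 bp with all deposited peaks. The cause was not tested. Without the replicate block, the counts of members called stayed at 0 in all 6 comparisons of locus reads, and 1 member (H3K27me3) was at an unadjusted p under 0.05 for coverage. Without a replicate, 3 pairs allow no p below 0.25, and H2AK119ub fits that leave 1 library against 1 gave no test. On simulated data, 2-fold changes were recovered least for H2AK119ub and H3K27ac with A-485.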
